A study of Homo sapiens with 6 samples.

Results

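The angiopoietins and other angiogenic factors were examined in 21NT cells overexpressing TBX3. The group holds 10 genes: the angiopoietins ANGPT1 and ANGPT2, the angiopoietin-like genes ANGPTL2 and ANGPTL4, the VEGF genes VEGFA, VEGFB and VEGFC, the growth factor gene FGF2, the thrombospondin gene THBS1 and the receptor gene NRP1. They were found by gene symbol among the 20824 genes of the RNA-Seq table, and all 10 were present. They had been selected on their symbols with earlier results of the same 6 libraries known. Their RPKM values, and the contrasts between the lines, are therefore given as a description with no p-value.

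21NT is a breast cell line that models ductal carcinoma in situ. The cells carried a pcDNA3.1 construct for TBX3iso1, a construct for TBX3iso2 or the empty vector (EV), and each of the 3 lines gave 2 mRNA libraries, 6 in all. TBX3 is a T-box transcription factor, and its isoforms arise by alternative splicing. All 3 lines were G418-resistant pools kept under G418 selection in the same serum-containing medium, which also held insulin, EGF and hydrocortisone, and RNA was taken at the same target confluence. Each construct is represented by 1 transfected pool. The sources do not say whether the 2 libraries of a line came from separate cultures, so the spread between them, and every p-value that rests on it, may be technical. A construct and the pool that carries it cannot be told apart here.

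Angiogenesis is the growth of blood vessels from existing ones, and epithelial tumour cells take part in it through the factors they secrete. VEGF ligands bind receptor tyrosine kinases on blood and lymphatic endothelial cells, with neuropilins as co-receptors. Angiopoietin 1 activates the endothelial receptor TIE2, encoded by TEK, and angiopoietin 2 can oppose it, while thrombospondin 1 is a matrix protein best known as an inhibitor of angiogenesis.

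The libraries held 43176600 to 54512400 alignments. TBX3 itself measured 8.38 ± 0.199 RPKM in EV, 12.3 ± 1.23 in TBX3iso1 and 16.5 ± 1.41 in TBX3iso2 (mean ± SD, n = 2 per line). RPKM is a read density, relative to both transcript length and the sequencing depth of a library, and it does not separate the isoforms. Log2 fold changes below are on the log2(RPKM + 0.1) scale, with the standard error (SE) of a limma fit over the 12805 genes whose mean reached 0.5 RPKM. A gene was called at a Benjamini-Hochberg adjusted p under 0.05 together with a fold change over 1.5. TBX3 passed in TBX3iso2 (0.97 ± 0.0989, limma adjusted p = 0.000257), whereas its log2 fold change of 0.54 ± 0.0989 in TBX3iso1 was under the fold threshold (limma adjusted p = 0.00378).

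Breast epithelial markers were mostly high, and endothelial markers were mostly near 0. Of 10 epithelial markers, 9 were tested, and KRT14 stayed under 0.5 RPKM in every library. KRT5 and KRT17 were at 2.83 and 5.32 RPKM in EV, well below the other tested ones. The summed level of the 10 was 3236 to 3351 RPKM in EV, 2668 to 2921 in TBX3iso1 and 3025 to 3394 in TBX3iso2. KRT5 was called higher in both isoform lines, CDH1 lower in TBX3iso1, and KRT19 and ERBB2 lower in TBX3iso2. Of 9 endothelial markers in the table, 7 were under 0.5 RPKM in every library, among them CDH5, which encodes the endothelial cadherin and did not exceed 0.083 RPKM, and CLDN5, which was listed at 0 in 5 libraries. The summed level of the endothelial markers was 8.23 to 8.73 RPKM in EV, 3.68 to 3.76 in TBX3iso1 and 5.51 to 6.05 in TBX3iso2, most of it from PECAM1 and ROBO4. Of 10 fibroblast markers, 7 were under 0.5 RPKM in every library, and their sum was 12.8 to 13.0 RPKM in EV, 11.5 to 12.5 in TBX3iso1 and 7.21 to 7.63 in TBX3iso2. The 2 tested fibroblast markers moved apart: the receptor gene PDGFRA was called lower, at 8.03, 3.46 and 0.0122 RPKM in EV, TBX3iso1 and TBX3iso2, and the collagen gene COL1A1 was called higher, at 4.30, 7.41 and 7.06 RPKM. Of 5 leukocyte markers in the table, 3 were under 0.5 RPKM in every library, and PTPRC, which encodes the pan-leukocyte antigen CD45, did not exceed 0.0102 RPKM. Their sum, mostly CD68, was 45.0 to 46.1 RPKM in EV, 36.0 in both TBX3iso1 libraries and 35.3 to 35.4 in TBX3iso2. The part of these movements in the results below was not tested. In bulk RNA, fewer cells that express a gene and less of its RNA per cell cannot be told apart.

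The proximal promoters of ANGPTL4, VEGFC and THBS1, the 3 genes of the group that were higher in both isoform lines, are shown because TBX3 is a DNA-binding factor and hypoxia is a well-known inducer of angiogenic genes. Each run covers the 250 bases before the annotated start, on the strand of the gene, from RefSeq (GRCh38.p14), at chr19:8363905-8364154 (+), chr4:176792923-176793172 (−) and chr15:39580829-39581078 (+). Capitals mark the core of the hypoxia response element, ACGTG or GCGTG, or its reverse complement.
ANGPTL4: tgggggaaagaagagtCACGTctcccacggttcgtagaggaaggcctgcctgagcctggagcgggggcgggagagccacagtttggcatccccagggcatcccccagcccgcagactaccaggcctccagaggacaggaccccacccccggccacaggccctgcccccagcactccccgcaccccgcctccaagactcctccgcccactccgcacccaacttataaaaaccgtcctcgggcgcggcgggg
VEGFC: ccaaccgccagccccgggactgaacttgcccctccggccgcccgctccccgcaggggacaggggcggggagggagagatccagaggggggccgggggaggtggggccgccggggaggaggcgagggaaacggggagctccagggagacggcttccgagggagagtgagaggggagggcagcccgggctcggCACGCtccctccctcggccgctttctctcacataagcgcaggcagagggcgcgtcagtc
THBS1: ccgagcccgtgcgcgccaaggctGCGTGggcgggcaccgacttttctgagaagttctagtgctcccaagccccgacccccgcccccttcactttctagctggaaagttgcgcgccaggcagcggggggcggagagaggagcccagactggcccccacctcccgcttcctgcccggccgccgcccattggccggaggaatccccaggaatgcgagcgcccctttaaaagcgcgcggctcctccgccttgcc

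The T-box core GGTGTGA was searched on both strands in the 6 promoters of the group that were in the RefSeq table and could be used (ANGPTL2, ANGPTL4, VEGFB, VEGFC, FGF2 and THBS1). It was in 0 of 6, and in 2.76% of the 35116 promoters of the same length in the table. The core ACGTG or GCGTG was in 5 of 6, all but ANGPTL2, and in 43.2% of all promoters. The 6 promoters were GC-rich, at 68.4% to 82.8% G and C. ANGPT1, ANGPT2, VEGFA and NRP1 were not analysed for sequence. A match is a run of letters, and no binding was measured in these data.

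Of the 10 genes, 7 reached a mean of 0.5 RPKM and entered the fit, and ANGPT2, ANGPTL2 and FGF2 did not. ANGPT1 entered only through its EV libraries, where it was high. The counts of calls below describe genes chosen with earlier results known, and they test nothing. In TBX3iso1, ANGPTL4, VEGFC and THBS1 were called higher than EV and ANGPT1 lower, 4 genes of the group beside 21.5% of all genes tested (7.46% higher and 14.1% lower). In TBX3iso2 the same 3 genes were called higher and ANGPT1 and VEGFA lower, 5 genes beside 21.2% (8.94% higher and 12.3% lower). Between the isoforms, ANGPT1 alone was called, lower in TBX3iso2, a call that was lost without any 1 isoform library, beside 6.29% of all genes tested (3.47% higher and 2.82% lower). The libraries of the lines did not overlap for 4 genes that were higher and 3 lower in TBX3iso1 than in EV, beside 78.4% of all genes tested (34.3% higher and 44.1% lower). In TBX3iso2 this held for 3 higher and 3 lower, beside 74.7% (37.5% higher and 37.2% lower). Between the isoforms it held for 5 genes, all lower in TBX3iso2, beside 53.5% (33.4% higher and 20.1% lower). The median log2 fold change of the 7 genes was 0.19 in TBX3iso1, −0.01 in TBX3iso2 and −0.25 between TBX3iso2 and TBX3iso1, and over all genes tested it was −0.05, −0.00 and 0.05. Both isoform lines were set against the same EV libraries, so their values share that control.

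**Figure D1:**
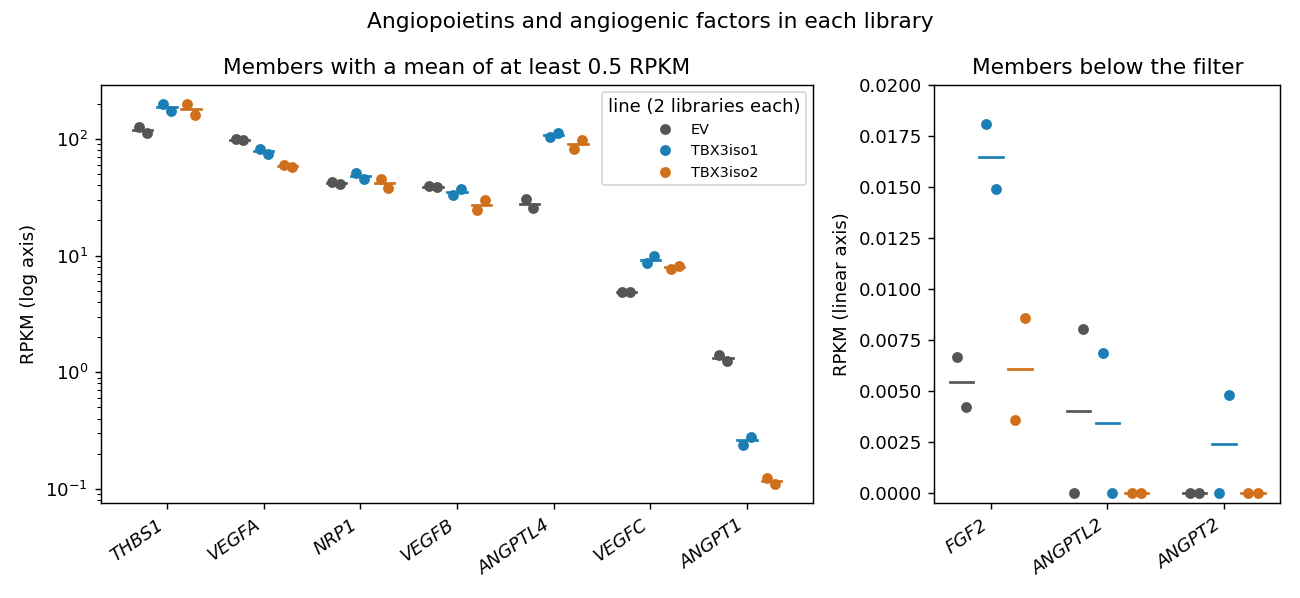
RPKM of the 10 genes in each library (points; bars are the mean of the 2 libraries of a line), on a log axis for the 7 genes in the fit and on a linear axis for the other 3. ANGPTL4 moves from below VEGFB in EV to above VEGFA in both isoform lines, and ANGPT1 drops from over 1 RPKM to below 0.5.

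Of the angiopoietins, ANGPT1 was measurable in EV and near the limit of measurement in the isoform lines. It was at 1.42 and 1.24 RPKM in EV, 0.24 and 0.28 in TBX3iso1, and 0.124 and 0.11 in TBX3iso2. The 3 lines did not overlap, EV being highest and TBX3iso2 lowest. The EV mean was 5.10 times that of TBX3iso1 and 11.3 times that of TBX3iso2. On the log2 scale the differences from EV were −1.99 ± 0.189 in TBX3iso1 and −2.71 ± 0.189 in TBX3iso2, and the isoforms differed by −0.73 ± 0.189. ANGPT1 entered the fit only through the EV libraries, since all 4 isoform libraries were under 0.5 RPKM. RPKM times the alignments gives 77.2 and 53.4 reads per kilobase of transcript in EV, 12.2 and 14.1 in TBX3iso1, and 6.33 and 4.75 in TBX3iso2, so the isoform values rest on few reads. With 1 RPKM added in place of 0.1, the differences from EV were −0.88 and −1.06, and ANGPT1 was no longer called between the isoforms. Fits that left out an EV library were not counted for this comparison. Of the 12 other alternatives in which ANGPT1 was tested, the call between the isoforms was lost in 8, including each in which an isoform library was left out.

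ANGPT2 was listed at 0 in 5 libraries and at 0.00478 RPKM in TBX3iso1 replicate 2. ANGPTL2, which encodes a secreted angiopoietin-like protein, was listed at 0 in 4 libraries, at 0.00803 RPKM in EV replicate 2 and at 0.00686 RPKM in TBX3iso1 replicate 1. Neither was detectable above these isolated values at this depth, and no fold is given.

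ANGPTL4 encodes a secreted inhibitor of lipoprotein lipase that also acts on endothelial junctions and cell adhesion. It was at 30.3 and 25.3 RPKM in EV, 103 and 111 in TBX3iso1, and 82.3 and 98.2 in TBX3iso2. Every isoform library was above both EV libraries, and both TBX3iso2 libraries were below both TBX3iso1 libraries. The mean was 3.86 times that of EV in TBX3iso1 and 3.24 times in TBX3iso2. The log2 fold changes were 1.95 ± 0.118 and 1.69 ± 0.118, with a difference of −0.25 ± 0.118 between the isoforms. ANGPTL4 stood above 81.2% of the genes tested in EV, 95.8% in TBX3iso1 and 94.6% in TBX3iso2. Its exons overlap those of no other annotated gene in GRCh37, where it lies on chromosome 19 from 8428173 to 8439254.

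VEGFA, which encodes the main ligand of blood vessel endothelium, went the other way. It was at 99.2 and 97.1 RPKM in EV, 81.6 and 74.4 in TBX3iso1, and 59.8 and 57.1 in TBX3iso2, and no 2 lines overlapped. The log2 fold change was −0.33 ± 0.0783 in TBX3iso1, under the fold threshold, and −0.75 ± 0.0783 in TBX3iso2, past it. The isoforms differed by −0.41 ± 0.0783, again under the threshold. VEGFA nevertheless stayed among the more abundant transcripts, above 95.6% of the genes tested in EV and 91.0% in TBX3iso2.

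VEGFB encodes a ligand of VEGF receptor 1 linked to lipid handling and cell survival. It was at 39.2 and 38.8 RPKM in EV, 33.1 and 37.3 in TBX3iso1, and 24.6 and 29.9 in TBX3iso2. Each line was below the one before, without overlap, but no comparison met the call. Its log2 fold change was −0.15 ± 0.107 in TBX3iso1 and −0.52 ± 0.107 in TBX3iso2. The value in TBX3iso2 passed only without TBX3iso2 replicate 2 (−0.66) or with quantile normalization (−0.62).

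VEGFC, which encodes the ligand of lymphatic endothelium, was the VEGF gene of the group that was higher. It was at 4.89 and 4.90 RPKM in EV, 8.63 and 9.82 in TBX3iso1, and 7.74 and 8.11 in TBX3iso2. The isoform libraries lay above EV in every case, with TBX3iso2 below TBX3iso1. The log2 fold change was 0.90 ± 0.0925 in TBX3iso1 and 0.68 ± 0.0925 in TBX3iso2, and the isoforms differed by −0.21 ± 0.0925.

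FGF2 encodes a broadly acting fibroblast growth factor that binds heparan sulfate. It did not exceed 0.0181 RPKM, its value in TBX3iso1 replicate 1, and was at 0.0149 in replicate 2, against 0.00423 and 0.00667 in EV and 0.00359 and 0.00857 in TBX3iso2. These values stand for 0.183 to 0.922 reads per kilobase, too few for a comparison. FGF2 also shares exon sequence with NUDT6 on the opposite strand and with AC021205.1 on the same strand.

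THBS1 was the most abundant of the 10 genes in all 6 libraries. It was at 126 and 111 RPKM in EV, 200 and 173 in TBX3iso1, and 198 and 162 in TBX3iso2. The isoform libraries were all above EV and overlapped each other. The log2 fold change was 0.64 ± 0.128 in TBX3iso1 and 0.59 ± 0.128 in TBX3iso2, just over the fold threshold, and −0.05 ± 0.128 between the isoforms. Both calls depended on single libraries. Without EV replicate 2 the values were 0.55 and 0.50, without TBX3iso1 replicate 1 the first was 0.54, without TBX3iso2 replicate 1 the second was 0.45, and none of these was called. THBS1 overlaps FSIP1 and THBS1-AS1 on the opposite strand.

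NRP1, a co-receptor for VEGF ligands and class 3 semaphorins, differed little between the lines. It was at 42.6 and 41.3 RPKM in EV, 50.9 and 45.2 in TBX3iso1, and 45.5 and 38.0 in TBX3iso2. TBX3iso1 was above EV without overlap, and TBX3iso2 overlapped both other lines. The log2 fold change was 0.19 ± 0.104 (95% interval −0.05 to 0.44) in TBX3iso1 and −0.01 ± 0.104 (−0.25 to 0.23) in TBX3iso2.

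**Figure D2:**
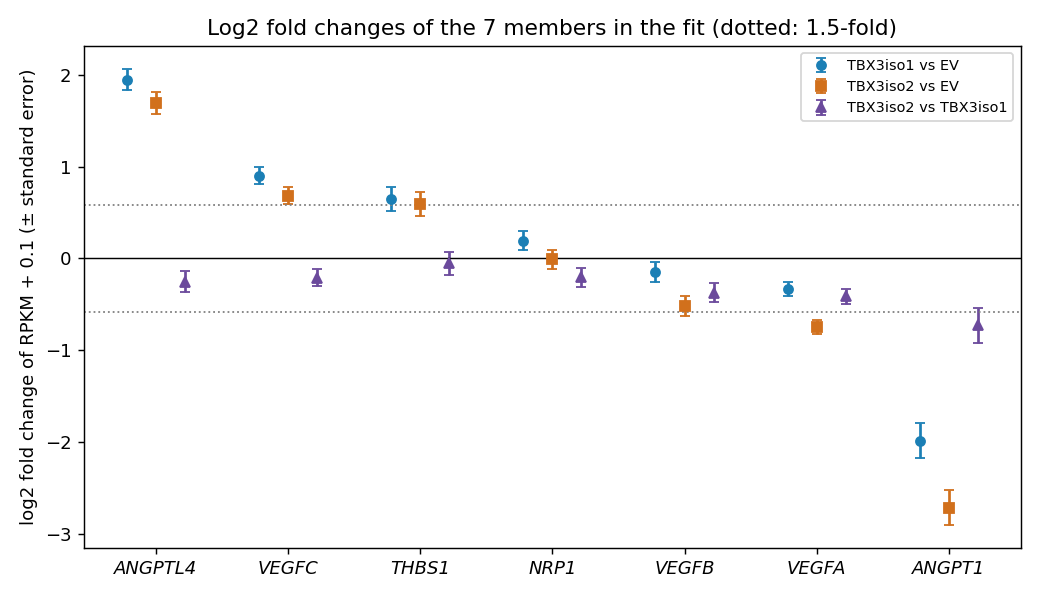
Log2 fold changes of RPKM + 0.1 for the 7 genes in the fit, with SE, for each isoform against EV and for TBX3iso2 against TBX3iso1 (dotted lines, 1.5-fold). ANGPTL4, VEGFC and THBS1 lie above the upper line for both isoforms, ANGPT1 lies below the lower line for both, and VEGFA does so for TBX3iso2.

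The order of the levels differed between EV and the isoform lines. In both EV libraries it was THBS1, VEGFA, NRP1, VEGFB, ANGPTL4, VEGFC and ANGPT1. In all 4 isoform libraries ANGPTL4 stood in the second place, above VEGFA, with the others in the same order. NRP1 and VEGFB were the closest neighbours in EV, at 41.9 ± 0.876 and 39.0 ± 0.216 RPKM. Within each line, no pair of neighbours in this order overlapped between libraries.

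Ratios within a library do not depend on a single scaling factor per library, although quantile normalization can change them. ANGPTL4 to VEGFA was 0.283 ± 0.0316 in EV, 1.38 ± 0.167 in TBX3iso1 and 1.55 ± 0.242 in TBX3iso2 (mean ± SD, n = 2). THBS1 to VEGFA was 1.21 ± 0.0902, 2.38 ± 0.0870 and 3.07 ± 0.338, and VEGFC to VEGFA was 0.0499 ± 0.000810, 0.119 ± 0.0186 and 0.136 ± 0.00886. VEGFA was thus a smaller part of the mix in the isoform lines, whichever of these genes it was set against. VEGFB to VEGFA was 0.395 and 0.400 in EV and ranged from 0.405 to 0.523 in the isoform libraries.

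**Figure D3:**
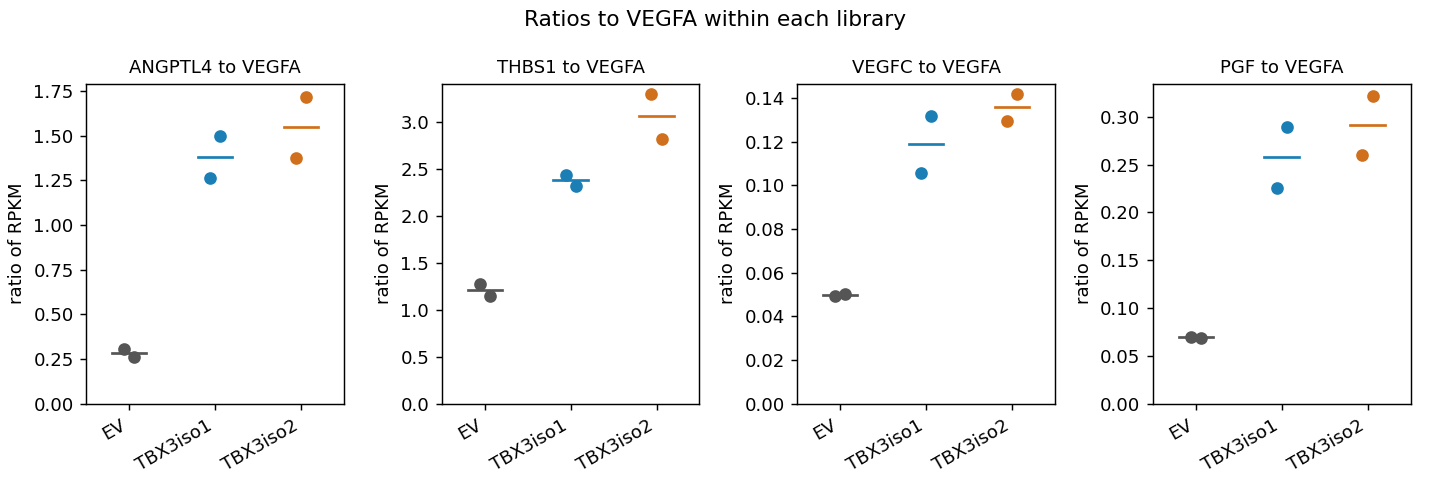
RPKM of ANGPTL4, THBS1, VEGFC and PGF divided by that of VEGFA in the same library (points; bars are the mean of 2 libraries). All 4 ratios are higher in every isoform library than in either EV library.

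Placental growth factor (PGF), the remaining expressed VEGF ligand and no member of the group, rose in both isoform lines. It measured 6.83 ± 0.158 RPKM in EV, 20.0 ± 2.23 in TBX3iso1 and 17 ± 2.01 in TBX3iso2, with log2 fold changes of 1.53 ± 0.110 (limma adjusted p = 5.53e-05) and 1.30 ± 0.110 (adjusted p = 0.000118). Added up, VEGFA, VEGFB, VEGFC and PGF came to 149 ± 1.86 RPKM in EV, 142 ± 0.956 in TBX3iso1 and 111 ± 4.14 in TBX3iso2. VEGFA made up 65.9% of that sum in EV, 54.8% in TBX3iso1 and 52.9% in TBX3iso2. PGF went from 4.59% to 14.0% and 15.3%, and VEGFC from 3.29% to 6.48% and 7.17%.

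The receptors of these ligands were low in all lines. FLT1, which encodes VEGF receptor 1, did not exceed 0.00239 RPKM, KDR (receptor 2) did not exceed 0.187, and FLT4 (receptor 3) did not exceed 0.076. TEK did not exceed 0.122 RPKM, and TIE1, the related orphan receptor gene, did not exceed 0.176. NRP2, the co-receptor that binds VEGF-C, was expressed at 4.88 ± 0.405 RPKM in EV, 6.45 ± 1.17 in TBX3iso1 and 4.22 ± 0.837 in TBX3iso2 and was not called (limma adjusted p = 0.0968 and 0.322).

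The other genes of these pathways were taken from 9 lists with 148 genes, of which 141 were in the table and 102 were tested. Of the 102, 14 were called higher and 16 lower in TBX3iso1 (29.4%), beside 21.5% of all genes tested (7.46% higher and 14.1% lower). In TBX3iso2, 17 were called higher and 18 lower (34.3%), beside 21.2% (8.94% higher and 12.3% lower). Between the isoforms, 11 were called higher in TBX3iso2 and 10 lower (20.6%), beside 6.29% of all genes tested. These shares over all genes are the background for each list below. No set test was made, and the lists were drawn up with earlier results known. Neither of the other angiopoietin-like ligands in the table, ANGPTL5 and ANGPTL6, reached 0.5 RPKM in any library.

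**Figure D4:**
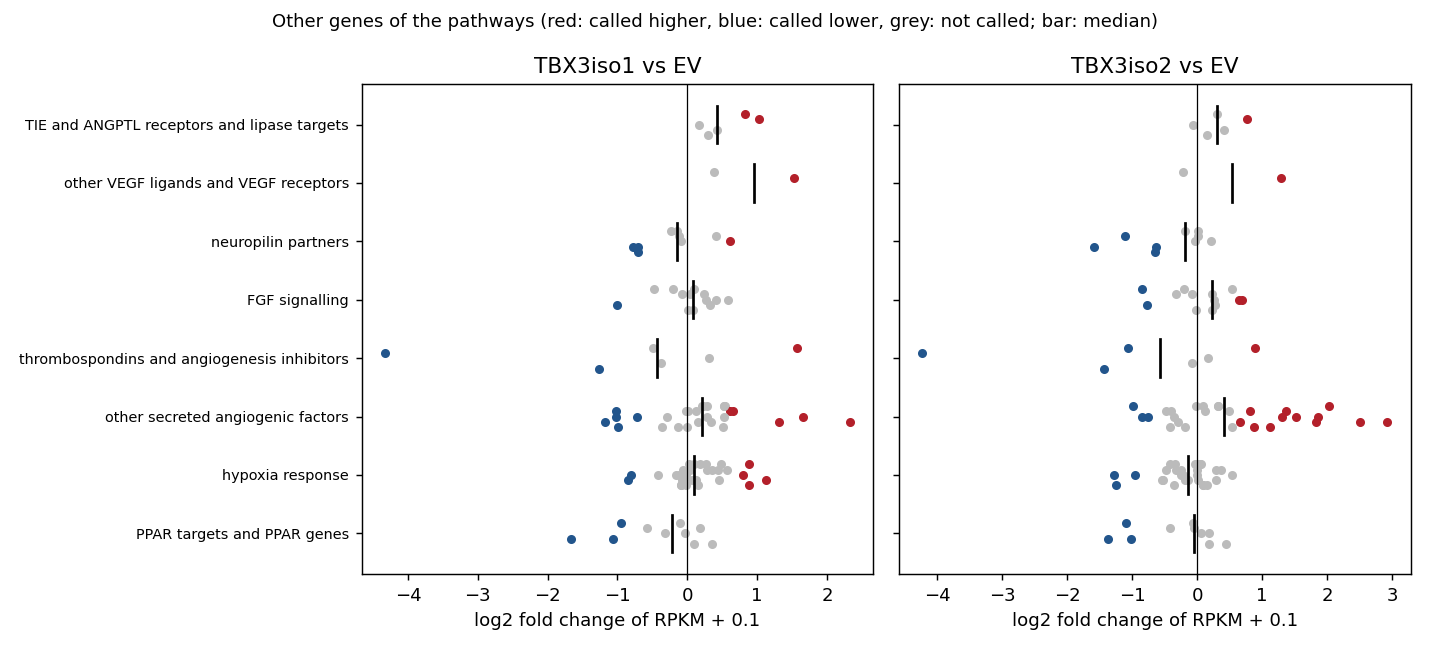
Log2 fold change of RPKM + 0.1 for each tested gene of 8 pathway lists (points; red, called higher; blue, called lower; grey, not called; bars, list medians) in TBX3iso1 and TBX3iso2 against EV. Most genes lie near 0 without a call, and the secreted angiogenic factors hold 12 higher calls in TBX3iso2.

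Among the TIE and ANGPTL receptors and lipase targets, 2 of 5 tested genes rose in TBX3iso1 and 1 in TBX3iso2, and none fell. Both encode integrin alpha chains. ITGA5, the fibronectin receptor chain, went from 23.9 ± 0.0139 RPKM in EV to 42.4 ± 0.921 in TBX3iso1 (0.83 ± 0.0924, limma adjusted p = 0.000405) and was at 29.7 ± 3.67 in TBX3iso2 (0.31, adjusted p = 0.0289, under the fold threshold). ITGAV, the alpha V chain, went from 9.78 ± 0.606 to 20.0 ± 2.89 (1.02 ± 0.165, adjusted p = 0.00211) and 17 ± 4.06 (0.77 ± 0.165, adjusted p = 0.00727). The ITGAV call in TBX3iso2 was lost without EV replicate 2 (0.71) or TBX3iso2 replicate 1 (0.52).

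Of 9 tested neuropilin partners, 1 rose and 3 fell in TBX3iso1, and 4 fell in TBX3iso2 (44.4% in each line, with a median log2 fold change of −0.15 and −0.18). SEMA3F, which encodes a semaphorin that binds NRP2 and repels endothelial cells, fell from 19.2 ± 1.67 RPKM in EV to 11.8 ± 0.821 (−0.70 ± 0.101, limma adjusted p = 0.00125) and 6.35 ± 0.512 (−1.58 ± 0.101, adjusted p = 3.26e-05). SEMA3B was at 2.58 ± 0.158, 2.36 ± 0.0146 and 1.15 ± 0.0984 RPKM and fell in TBX3iso2 (−1.11 ± 0.121, adjusted p = 0.00035). The plexin genes, which encode signalling partners of neuropilins, did not all move alike. PLXND1, at 4.52 ± 0.139, 2.74 ± 0.420 and 2.87 ± 0.305 RPKM, fell in TBX3iso1 (−0.71, adjusted p = 0.00444) and TBX3iso2 (−0.64, adjusted p = 0.00666). PLXNA3 fell in TBX3iso1 (−0.78, adjusted p = 0.00302) and TBX3iso2 (−0.63, adjusted p = 0.00782), and PLXNA2 rose in TBX3iso1 (0.61, adjusted p = 0.00762). PLXNA2 lost its call without EV replicate 2 (0.58) or TBX3iso1 replicate 1 (0.53), and PLXNA3 lost its call in TBX3iso2 without EV replicate 2 (−0.59) or TBX3iso2 replicate 2 (−0.49). PLXND1 lost its call in TBX3iso1 without TBX3iso1 replicate 2 (−0.56), and in TBX3iso2 without EV replicate 1 (−0.61) or TBX3iso2 replicate 2 (−0.54).

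Of 13 tested FGF signalling genes, 1 fell in TBX3iso1 (7.69%), and 2 rose and 2 fell in TBX3iso2 (30.8%), with a median of 0.08 and 0.22. FGFBP1, whose secreted product releases FGF2 from the matrix, fell in both lines, from 4.33 ± 0.0391 RPKM to 2.10 ± 0.172 (−1.01 ± 0.107, limma adjusted p = 0.000315) and 2.49 ± 0.0482 (−0.78 ± 0.107, adjusted p = 0.000996). In TBX3iso2, the phosphatase gene DUSP6 fell (−0.84, adjusted p = 0.0001). ETV5 (0.65, adjusted p = 0.000667) and SPRY4 (0.70, adjusted p = 0.00132) rose there. These 3 are commonly used readouts of FGF and MAPK signalling, and they did not move in 1 direction.

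Of 6 tested genes in the list of thrombospondins and angiogenesis inhibitors, 1 rose and 2 fell in TBX3iso1. In TBX3iso2, 1 rose and 3 fell, and the list median was −0.43 and −0.57 in the 2 lines. The list mixes inhibitors with other thrombospondin genes, receptors and VASN, so its counts and medians do not describe inhibitors alone. CD36, which encodes the thrombospondin 1 receptor and fatty acid transporter, fell from 2.88 ± 0.293 RPKM in EV to 0.048 ± 0.00874 in TBX3iso1 (−4.33 ± 0.227, limma adjusted p = 1.48e-05) and 0.0607 ± 0.0352 in TBX3iso2 (−4.23 ± 0.227, adjusted p = 1.59e-05). Like ANGPT1, CD36 was tested only through its EV libraries. Its isoform values lay under the 0.1 RPKM added, and with 1 RPKM added the log2 fold changes were −1.89 and −1.87. THBS3 fell from 4.11 ± 0.282 to 1.65 ± 0.110 (−1.26, adjusted p = 0.000167) and 1.47 ± 0.0304 (−1.42, adjusted p = 0.0001), so the thrombospondin genes THBS1 and THBS3 went in opposite directions. ADAMTS1, a metalloprotease gene with anti-angiogenic thrombospondin repeats, rose from 0.602 ± 0.0761 to 1.99 ± 0.194 (1.57, adjusted p = 0.000185) and 1.20 ± 0.0195 (0.89, adjusted p = 0.00238). VASN, which encodes a TGF-beta-binding membrane protein, fell in TBX3iso2 (−1.07, adjusted p = 0.000143).

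Of 28 tested secreted angiogenic factors, 5 rose and 5 fell in TBX3iso1 (35.7%, beside 21.5% of all genes tested), and 12 rose and 3 fell in TBX3iso2 (53.6%, beside 21.2%). Their median log2 fold change was 0.22 and 0.41. The chemokine genes CXCL8 and CXCL2 were called in opposite directions. CXCL8, which encodes a neutrophil chemoattractant that also acts on endothelial cells, fell from 16.5 ± 1.87 RPKM in EV to 7.24 ± 0.776 in TBX3iso1 (−1.18 ± 0.146, limma adjusted p = 0.000636) and rose to 59.3 ± 11.4 in TBX3iso2 (1.83 ± 0.146, adjusted p = 8.53e-05). CXCL2 was at 7.06 ± 0.770, 3.42 ± 0.138 and 18.5 ± 3.71 RPKM (−1.02, adjusted p = 0.00113, and 1.37, adjusted p = 0.000278). CXCL1 rose in TBX3iso2 (2.03, adjusted p = 0.000127) and was not called in TBX3iso1 (0.21, adjusted p = 0.367). CXCL3, at 2.79 ± 0.717, 1.65 ± 0.409 and 10.4 ± 2.42 RPKM, rose in TBX3iso2 (1.86, adjusted p = 0.000683). Its lower call in TBX3iso1 (−0.72, adjusted p = 0.0397) was lost without EV replicate 2 (−0.47) or TBX3iso1 replicate 1 (−0.48) and under both other scalings.

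Further secreted factors moved the same way in both lines. PTN, the pleiotrophin gene, rose from 0.186 ± 0.0268 RPKM to 1.34 ± 0.164 (2.33 ± 0.159, limma adjusted p = 4.42e-05) and 2.07 ± 0.00288 (2.92 ± 0.159, adjusted p = 1.68e-05). PTN passed the filter only through the isoform lines, since EV was under 0.5 RPKM, and with 1 RPKM added its log2 fold changes were 0.98 and 1.37. CSF2, which encodes the cytokine GM-CSF, rose from 1.01 ± 0.169 to 2.64 ± 0.166 (1.31, adjusted p = 0.000519) and 6.19 ± 0.969 (2.5, adjusted p = 2.97e-05). LGALS3, the galectin 3 gene, fell from 230 ± 10.4 to 114 ± 13.0 (−1.02, adjusted p = 0.000225) and 128 ± 4.77 (−0.84, adjusted p = 0.000519).

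VEGFA and ANGPTL4 are both known hypoxia-inducible genes, and ANGPTL4 is also a PPAR target. Of 29 tested hypoxia response genes, 4 rose and 2 fell in TBX3iso1 (20.7%), beside 21.5% of all genes tested (7.46% higher and 14.1% lower). In TBX3iso2, 0 rose and 3 fell (10.3%), beside 21.2% (8.94% higher and 12.3% lower). The median log2 fold change of the list was 0.10 and −0.15, beside −0.05 and −0.00 over all genes tested. HIF1A, the oxygen-regulated factor gene, fell from 457 ± 7.82 RPKM in EV to 255 ± 22.8 in TBX3iso1 (−0.84 ± 0.138, limma adjusted p = 0.00231) and was at 322 ± 58.3 in TBX3iso2 (−0.52 ± 0.138, adjusted p = 0.0183, under the fold threshold). Without TBX3iso2 replicate 1 (−0.70) or with quantile normalization (−0.69) HIF1A was called lower in TBX3iso2 as well. EPAS1, which encodes HIF-2 alpha, was not called (−0.17, adjusted p = 0.323, and −0.25, adjusted p = 0.154). The carbonic anhydrase gene CA12 (0.88, adjusted p = 0.000441), the glycolytic regulator PFKFB4 (0.89, adjusted p = 0.000296) and the lipoprotein receptor gene VLDLR (1.13, adjusted p = 0.000638) rose in TBX3iso1. DDIT4, which encodes an inhibitor of mTORC1 signalling, fell in both lines (−0.80, adjusted p = 0.000708, and −1.28, adjusted p = 8.23e-05). NDRG1 (−1.24, adjusted p = 1.94e-05) and LOX (−0.95, adjusted p = 0.000234), the lysyl oxidase gene, fell in TBX3iso2.

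Of 10 tested PPAR genes and targets, the same 3 fell in each isoform line and none rose, with a median of −0.21 and −0.05. PDK4, a pyruvate dehydrogenase kinase gene and PPAR target like ANGPTL4, fell from 3.66 ± 0.186 RPKM to 1.08 ± 0.0302 (−1.66, limma adjusted p = 0.000297) and 1.79 ± 0.470 (−1.01, adjusted p = 0.0027). RXRA, which encodes the dimer partner of PPARs, fell from 15.0 ± 0.963 to 7.16 ± 0.578 (−1.06, adjusted p = 0.000122) and 5.77 ± 0.00289 (−1.36, adjusted p = 4.39e-05). PPARA fell from 1.70 ± 0.0621 to 0.840 ± 0.116 (−0.95, adjusted p = 0.00865) and 0.763 ± 0.242 (−1.09, adjusted p = 0.0045), the first of which was lost without either EV library (−0.91 and −0.98).

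The genes most like ANGPT1 and ANGPTL4, which had the widest ranges of line means (2.71 and 1.95 on the log2 scale), were found by Euclidean distance between centred log2 values over the 6 libraries. For ANGPT1 they were IL20RB (distance 0.180), GPNMB (0.277) and DAPK2 (0.278). IL20RB was at 15.1 ± 0.0482 RPKM in EV, 3.56 ± 0.373 in TBX3iso1 and 2.21 ± 0.0197 in TBX3iso2, the same order as ANGPT1 at a higher level. ANGPT1 had a mean of 0.117 RPKM in TBX3iso2, close to the 0.1 RPKM added, so its distances depend on that amount. Distances with other amounts were not computed. For ANGPTL4 they were HLA-DPA1 (0.257), ACOX2 (0.308) and CHST10 (0.345). CHST10 was at 1.14 ± 0.0533, 4.27 ± 0.0560 and 3.26 ± 0.000940 RPKM.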

How the data were processed

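Stranded mRNA libraries of 6 samples were sequenced by the authors as paired-end reads, aligned to hg19 with TopHat in Galaxy and quantified in Partek Genomics Suite. Versions and the gene annotation are not given in the sources used here. The authors deposited RPKM on the linear scale, with the alignments of each library in a further line. The table gives no gene counts, so the spread between replicates is the measure of error. Whether counting used strand is not stated, so reads of VEGFA, FGF2, THBS1, NRP1 or ANGPT2 and of a gene overlapping it on the opposite strand cannot be told apart, nor can those of FGF2 and AC021205.1 on the same strand.

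From these values, log2(RPKM + 0.1) was fitted for 12805 of 20824 genes, those whose mean reached 0.5 RPKM, with limma 3.58.1 in R 4.3.3, with 1 mean per line over all 6 libraries, a trended prior and Benjamini-Hochberg adjustment over all genes tested. A call needed an adjusted p under 0.05 and a fold over 1.5. Ratios, list counts and sequence matches were computed in Python 3.11.15. Coordinates and overlaps came from GENCODE on GRCh37, and promoters from RefSeq on GRCh38.p14.

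The genes, the 9 pathway lists and the marker lists were chosen with earlier results of these data known. Named are all 10 genes, TBX3, the receptors TEK, TIE1, FLT1, KDR, FLT4 and NRP2, PGF, HIF1A and EPAS1, up to 3 called genes with the largest rise and 3 with the largest fall per list, and the 3 genes nearest to each of the 2 widest-ranging genes. CXCL3, PLXND1, SPP1, EFNB2, KITLG, marker genes, ANGPTL5, ANGPTL6 and overlapping genes are named outside this rule, after their values were seen. Alternatives were 1 and 0.01 RPKM added, no filter, a filter at 2 RPKM, median-ratio scaling, quantile normalization, a replicate block, no trend, only the lines compared, and leaving out each library.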

Additional observations from a re-analysis of the deposited data

Results flagged for a closer look

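The difference between the isoforms was tested directly, with limma and Benjamini-Hochberg adjustment over all genes tested, and 21 of the 102 tested pathway genes passed (11 higher and 10 lower in TBX3iso2, 20.6%, beside 6.29% of all genes tested). Of these, 13 were named for their large changes against EV and are given as the log2 difference of TBX3iso2 minus TBX3iso1. The naming rule used the same 6 libraries, on lists drawn up with earlier results known. It can favour genes that differ between the isoforms, so the adjusted p-values are not independent of that rule. Among the secreted factors, TBX3iso2 was higher for CXCL8 by 3.01 (limma adjusted p = 5.73e-05), CXCL2 by 2.39 (adjusted p = 0.000137), CXCL1 by 1.83 (adjusted p = 0.00104), CSF2 by 1.19 (adjusted p = 0.00327) and PTN by 0.60 (adjusted p = 0.0449). Of the 28 tested secreted factors, 10 were called higher in TBX3iso2 than in TBX3iso1 and 3 lower. Higher ones outside that rule included CXCL3 (2.58, limma adjusted p = 0.000845). The 3 lower ones, all outside that rule, were SPP1 (−1.52, adjusted p = 0.000182), EFNB2 (−0.63, adjusted p = 0.00904) and KITLG (−0.60, adjusted p = 0.0408). The KITLG call was lost without either TBX3iso1 library, either EV library or TBX3iso2 replicate 2. EFNB2 was lost without TBX3iso1 replicate 1 (−0.57) or TBX3iso2 replicate 2 (−0.48). All 4 isoform libraries were above both EV libraries for CSF2 and PTN. For CXCL8 and CXCL2 both TBX3iso1 libraries were below EV and both TBX3iso2 libraries above it.

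Of the hypoxia response genes, VLDLR (−1.32, limma adjusted p = 0.00148), NDRG1 (−1.15, adjusted p = 0.000145), CA12 (−0.83, adjusted p = 0.00271) and PFKFB4 (−0.80, adjusted p = 0.00213) were lower in TBX3iso2. The semaphorin genes SEMA3B (−0.98, adjusted p = 0.00276) and SEMA3F (−0.88, adjusted p = 0.00201) were lower in TBX3iso2, as was the inhibitor ADAMTS1 (−0.68, adjusted p = 0.0229). PDK4 was higher in TBX3iso2 by 0.65 (adjusted p = 0.044).

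The calls for PTN, PDK4 and ADAMTS1 were the least stable. Without TBX3iso1 replicate 1 they measured 0.48, 0.68 and −0.58, and without TBX3iso1 replicate 2 they measured 0.71, 0.63 and −0.77, none of them called. PTN was lost without any 1 of the 6 libraries, and PDK4 without any but TBX3iso2 replicate 2. ADAMTS1 was also lost without EV replicate 1. The other 10 of the 13 differences passed under each alternative in which the gene was tested.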

How the results depend on the processing

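Of 270 values of the group recomputed under the alternatives, 250 kept their direction and their side of the thresholds. For each comparison, these values left out only libraries of the lines compared. With 1 RPKM added, 1812 genes were called in TBX3iso1 against 2757, and 419 between the isoforms against 805. A filter at 2 RPKM left 504 called between the isoforms, of 10313 genes tested against 12805 as reported. The single gene of the group called between the isoforms, ANGPT1, was not called (0 genes) with 1 RPKM added, without a filter, at 2 RPKM, where it was not tested, with quantile normalization, with only the lines compared, and without any 1 isoform library (0 to 0). The genes of the group called numbered 3 to 4 in TBX3iso1 and 4 to 6 in TBX3iso2 when a library of the lines compared was left out. NRP1 in TBX3iso2 ranged from −0.14 to 0.12, turning to 0.01 without EV replicate 1 and 0.12 without TBX3iso2 replicate 2. THBS1 between the isoforms ranged from −0.20 to 0.091, turning to 0.05 without TBX3iso1 replicate 1 and 0.091 without TBX3iso2 replicate 2. With quantile normalization THBS1 was not called in either line (0.51 and 0.47), and 49.0% of the genes called in TBX3iso1 were higher against 34.6% as reported. Between the isoforms, 43.5% were higher with median-ratio scaling and 44.7% with quantile normalization, against 55.2%. With 1 RPKM added, the calls of PLXNA2 (0.51), PPARA (−0.56), PLXND1 (−0.56) and CXCL3 (−0.51) in TBX3iso1 and of PLXNA3 (−0.53), PLXND1 (−0.51), ADAMTS1 (0.46) and SPRY4 (0.56) in TBX3iso2 were lost, as were those of PLXNA3 in TBX3iso2 (−0.55), PLXND1 in both lines (−0.54 and −0.52) and CXCL3 in TBX3iso1 (−0.51) with quantile normalization. With 1 RPKM added, the log2 fold changes of CSF2 (0.86) and ADAMTS1 (0.90) in TBX3iso1 and of PPARA (−0.62) in TBX3iso2 were over 1.5 times smaller but stayed called. No scaling moved the median of all genes by over 0.1. The cause of these changes was not tested. Libraries are the limit: without counts, and with 2 per line, fold changes near the threshold or below 0.5 RPKM are the least certain.

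With a replicate block, 2838, 2795 and 900 genes were called in the 3 comparisons, and the genes of the group called stayed at 4, 5 and 1. Deviations of same-numbered libraries correlated at 0.22 (EV and TBX3iso1), 0.11 (EV and TBX3iso2) and 0.50 (the isoforms). The labels give no shared culture or day, so the libraries were not treated as paired. Yet THBS1, NRP1 and VEGFA were higher in replicate 1 than in replicate 2 of each line, and VEGFC was lower.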

Other observations

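The 2 endothelial markers with expression moved in opposite directions in both isoform lines. They are described after their values were seen. PECAM1, which encodes the adhesion molecule CD31, fell from 7.29 ± 0.239 RPKM in EV to 1.15 ± 0.0153 in TBX3iso1 (−2.56 ± 0.115, limma adjusted p = 7.75e-06) and 1.29 ± 0.113 in TBX3iso2 (−2.41 ± 0.115, adjusted p = 1.01e-05). ROBO4, a receptor gene best known from endothelium, rose from 0.492 ± 0.0543 RPKM to 2.0 ± 0.00512 (1.83 ± 0.127, adjusted p = 4.67e-05) and 4.07 ± 0.176 (2.82 ± 0.127, adjusted p = 9.31e-06). Like PTN, ROBO4 passed the filter only through the isoform lines, since its EV mean was under 0.5 RPKM. CDH5 was at 0.0743 ± 0.0124, 0.0179 ± 0.00812 and 0.0123 ± 0.0075 RPKM.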
